A study of Trichoderma reesei with 11 samples.

Results

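A set of 101 gene IDs of the fungus Trichoderma reesei had more reads in darkness when the kinase gene TR_57513 was missing, while in light the strains with and without it stood close together. The 101 were chosen by these values from 10879 gene IDs in all. Levels are given as CPM, the reads of a gene ID scaled to a library total of 1000000, and 0.5 CPM was added to each group mean before any minimum or ratio of the rule was applied. An ID was taken where the ratio of the deletion strain to its parent was at least 2.5 in darkness and the means lay within about 1.5-fold of each other in light, with every dark library of the deletion strain above every dark library of the parent. With the added 0.5, the dark means also had to reach 5 CPM in the deletion strain and 1.5 CPM in the parent, and the 20 IDs at each end of the 7 lettered ID series were skipped. The strain ratios in darkness and in light are therefore what chose these IDs, and they are given below as a description.

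The study set 4 groups of mycelium side by side, all grown for 96 h at 28 °C in minimal medium with cellulose. The strain Δ57513 lacks TR_57513 and is labelled QM6a-delta-mus53-delta-57513. It gave 3 libraries from constant light (Δ57513_LL) and 3 from constant darkness (Δ57513_DD). Its parent, labelled QM6a-delta-mus53 and wild type for TR_57513, gave 3 libraries from constant light (mus53_LL) and 2 from constant darkness (mus53_DD). All groups thus lack mus53, a gene of DNA end joining whose loss favours targeted gene replacement, and both strains derive from the wild type QM6a. The labels name no further clone of the deletion strain, so clone and deletion cannot be told apart, and whether each library had a culture of its own is not stated. All p-values therefore speak only of the spread among these 11 libraries. Library totals were 8924252 to 10184280 counts in Δ57513_LL, 8020351 to 8770166 in mus53_LL, 13790024 to 18278047 in Δ57513_DD and 15175573 to 16308391 in mus53_DD.

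The series title places TR_57513 in the HOG pathway as a MAPKKK, the uppermost kinase of a relay that ends in a MAP kinase of the Hog1 type. In yeast this pathway answers high osmolarity, and in filamentous fungi it is also known for stress tolerance, development and signalling from light receptors. T. reesei is used for cellulase production, and light is known to change its growth, sporulation and cellulase genes. The deposited table does not pair its IDs with gene names, and 0 of the 10879 IDs matched the RefSeq gene table of T. reesei, so no function is given for any ID and the reads of the deleted gene were not identified here. CPM is not corrected for gene length, so levels are compared within an ID and not between IDs.

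In darkness the 101 IDs together took 1.12% to 1.27% of the reads in the 3 Δ57513_DD libraries, against 0.209% to 0.350% in the 2 mus53_DD libraries. In light they took 0.674% to 0.773% in Δ57513_LL and 0.564% to 0.886% in mus53_LL, and these ranges overlapped. Of the light reads, 71.0% to 76.3% fell on only 3 of the IDs, TrB1130W, TrD1010C and TrB0209C. The other 98 took 0.195% to 0.217% of the reads in Δ57513_LL and 0.145% to 0.210% in mus53_LL, beside 0.924% to 1.09% in Δ57513_DD and 0.172% to 0.277% in mus53_DD. In RNA of whole mycelium, fewer cells of a type and less RNA per cell cannot be told apart.

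Before the light condition was considered, 293 IDs past the level minimums had the ratio of 2.5 in darkness without overlap of the libraries. The light ratio lay inside the range for 101 of them (34.5%), above it for 159 (54.3%) and below it for 33 (11.3%). All 101 were among the 9040 IDs tested with edgeR's quasi-likelihood test. With p-values adjusted over all 9040 IDs, 74 of the 101 passed as higher in Δ57513_DD than in mus53_DD, where 7.25% of all tested IDs passed as higher and 4.97% as lower. The number was 39 without mus53_DD replicate 1 and 34 when the light libraries were left out of the fit. Every Δ57513_DD library lay above every mus53_DD library for 25.4% of all tested IDs and, by the rule, for all 101. In light 1 of the 101 passed as different between the strains, beside 13.9% of all IDs called higher and 13.1% called lower in Δ57513_LL. That number was 0 without Δ57513_LL replicate 2 or mus53_LL replicate 2, 2 without Δ57513_DD replicate 1 and 4 without mus53_LL replicate 1. The rule used both comparisons, so nothing is read from these numbers.

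**Figure D1:**
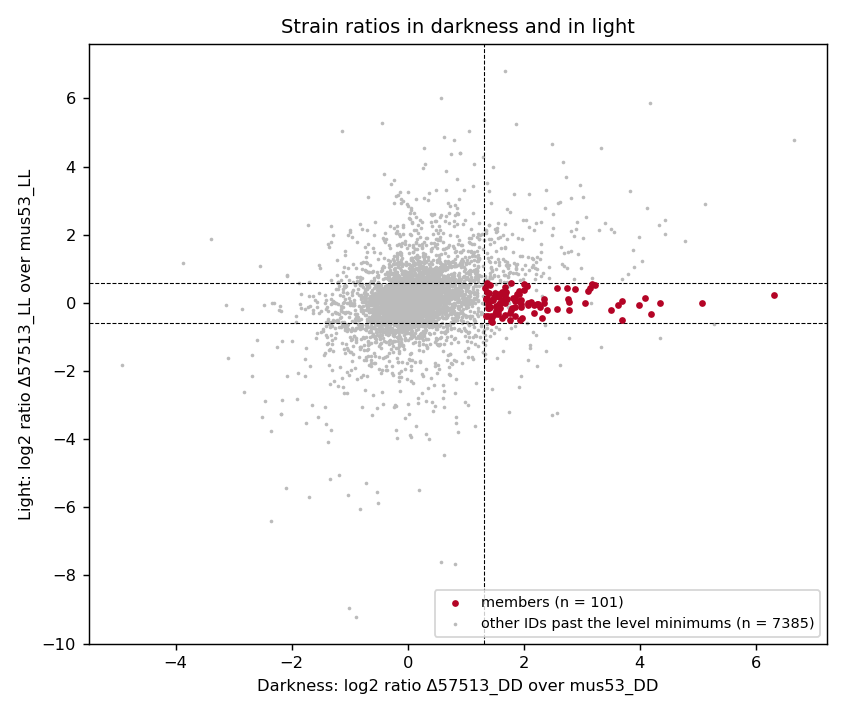
Strain ratios on log2 scales, in darkness (x axis) and in light (y axis), from group means with 0.5 CPM added. The 101 members are red, the other 7385 IDs past the level minimums grey, and dashed lines mark the ratio of 2.5 in darkness and the 1.5-fold limits in light that bound the set.

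The ratio of Δ57513_DD to mus53_DD had a median of 3.52 over the 101 IDs and ran from 2.52 to 79.9. It was at least 5 for 25 IDs and at least 10 for 10 IDs. TrG0034W had the highest ratio, 79.9, with 80.2, 258 and 133 CPM in the 3 Δ57513_DD libraries, against 2.02 and 0.922 CPM in the 2 mus53_DD libraries. Next came TrG0821W with a ratio of 33.7, at 70.0, 43.4 and 55.8 CPM in Δ57513_DD and 1.78 and 0.593 CPM in mus53_DD. For both IDs each Δ57513_DD library stood far above the mus53_DD libraries. TrE0436W and TrD0022W held the most dark reads. TrE0436W had 1721, 2982 and 3116 CPM in Δ57513_DD, against 343 and 1150 CPM in mus53_DD, so the strains lay close where Δ57513_DD replicate 1 met mus53_DD replicate 2. TrD0022W had 1530, 1587 and 2079 CPM in Δ57513_DD, against 175 and 195 CPM in mus53_DD, and here the strains lay well apart. Some IDs named in the text missed the threshold of edgeR's strain test in darkness, a contrast the rule used. The edgeR adjusted p was 0.0938 for TrE0436W, 0.108 for TrB0209C, 0.0997 for TrB1130W and 0.0552 for TrF1128W. It was 0.0764 for TrA0420W, 0.161 for TrA1877C, 0.162 for TrC0831W and 0.0502 for TrF0312W.

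At the lower bound the set had no gap. TrF0445C (ratio 2.52) and TrA1877C (2.55) were just inside, with 24.5 and 34.4 CPM on average in Δ57513_DD and 9.44 and 13.2 CPM in mus53_DD. TrC1326C (2.47) and TrB1255C (2.47) met every other condition and were just outside, at 13.6 and 6.42 CPM in Δ57513_DD and 5.18 and 2.31 CPM in mus53_DD. In all, 68 IDs with ratios from 2 to 2.5 met all other conditions, TrC1326C and TrB1255C among them, and 33 of the 101 had a ratio under 3.

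The members also differed in where their light level lay. The light level was taken as the geometric mean of both strains in light and placed against the dark levels with a margin of 1.5-fold. It lay below the mus53_DD level for 45 IDs (44.6%), near it for 24 (23.8%), between the dark levels of the strains for 14 (13.9%), near the Δ57513_DD level for 12 (11.9%) and above that for 6 (5.94%). Over the 7486 IDs past the level minimums, the median log2 ratio of the light level to mus53_DD was 0.18, and over the 101 it was -0.24. Both use CPM from library totals. With such totals the median log2 change in light of all tested IDs was itself 0.19 in Δ57513 and 0.15 in mus53. Light levels over 1.5-fold below mus53_DD were found for 45 of the 101 IDs (44.6%), beside 15.0% of those 7486, and over 1.5-fold above it for 32 (31.7%), beside 18.7%. The rule favoured low mus53_DD values, which by itself raises this ratio. Its light condition takes nearly all raised IDs with means under 0.5 CPM in both light groups, which lowers it.

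**Figure D2:**
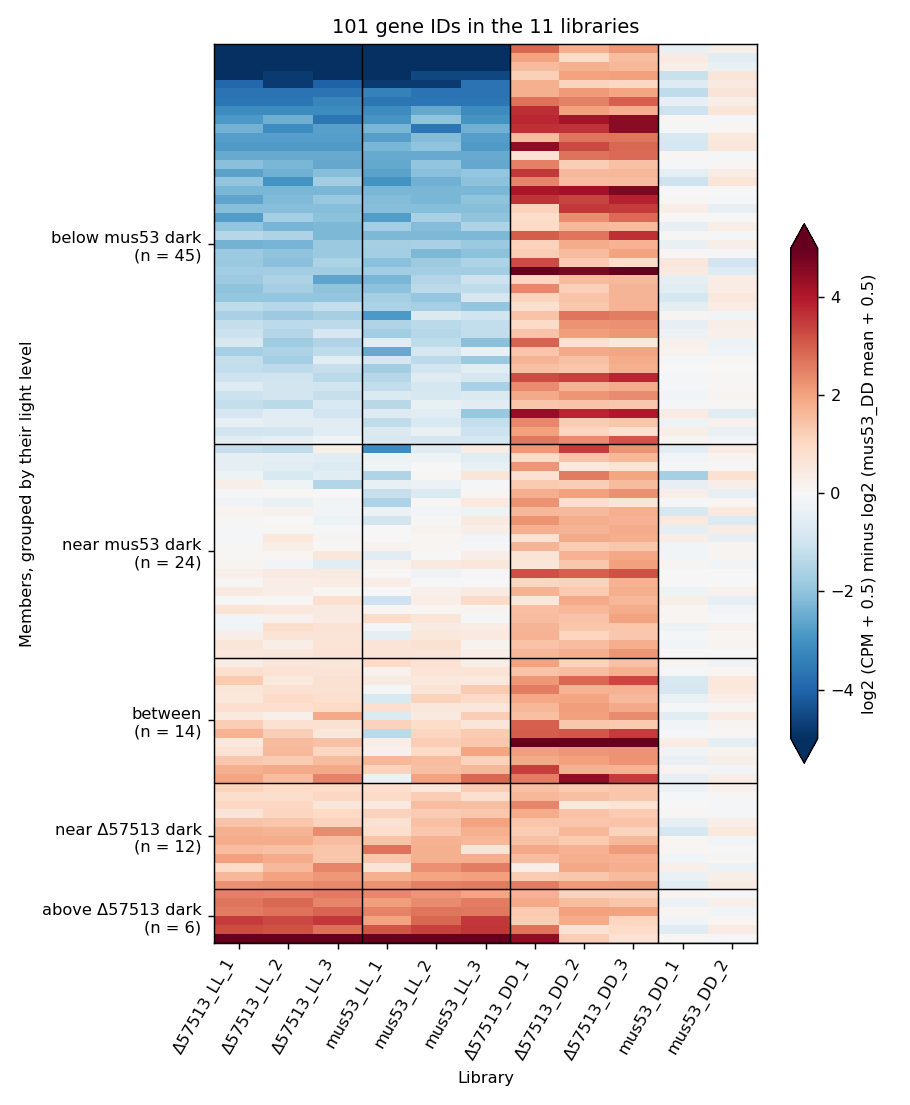
Each row is 1 of the 101 IDs and each column 1 of the 11 libraries, coloured by log2 (CPM + 0.5) minus log2 of the mus53_DD mean + 0.5. Rows are grouped by light level, and colours are cut at 5 in both directions. The Δ57513_DD columns are raised throughout, as the rule requires, while the light columns run from blue in the 45 IDs at the top to red in the 6 at the bottom.

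The tests of light against darkness were not used by the rule, but they share its dark libraries, which were chosen to be high in Δ57513 and low in mus53. In Δ57513, 81 of the 101 IDs were lower in light than in darkness by edgeR's test and 5 were higher, beside 22.7% and 20.3% of all IDs. Every Δ57513_LL library lay below every Δ57513_DD library for 84 IDs (83.2%) and above for 8 (7.92%), where all tested IDs gave 21.2% and 43.6%. In mus53, 40 of the 101 IDs were lower in light and 17 were higher, beside 20.4% and 18.3% of all IDs. By group means with 0.5 CPM added, light in mus53 was over 1.5-fold lower for 44.6% of the 101 and higher for 28.7%. The 159 IDs raised in darkness with a light ratio above 1.5 gave 47.8% and 27.0%, so this was not particular to the set. Every mus53_LL library lay below every mus53_DD library for 43 IDs (42.6%) and above for 28 (27.7%), where all tested IDs gave 23.3% and 38.9%. These comparisons of single libraries use CPM from library totals. With such totals the median log2 change in light of all tested IDs was 0.19 in Δ57513 and 0.15 in mus53. With the scaling of edgeR's test it was -0.006 and -0.004, so the larger shares above than below over all IDs depend on the scaling. The choice of low mus53_DD values works against a lower level in light in mus53 and in favour of a higher one. The rule also works the other way, since its level minimums were set on the dark groups only. Its light condition, with 0.5 CPM added, takes nearly all raised IDs with means under 0.5 CPM in both light groups. Of the 23 members this low in light, 22 were among the 40 lower in light in mus53. Without mus53_DD replicate 2, 27 IDs were lower in light in mus53, while without mus53_DD replicate 1 it was 37.

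Side by side, 40 IDs (39.6%) were lower in light in both strains, beside 12.6% of all tested IDs. A further 38 (37.6%) were lower in light in Δ57513 while mus53 did not pass either way, beside 9.49%, a combination that high Δ57513_DD and low mus53_DD values favour. Both strains were higher in light for 5 IDs (4.95%), beside 10.3%, and 9 (8.91%) were higher in mus53 while Δ57513 did not pass, beside 7.4%. For 3 IDs (2.97%) light was lower in Δ57513 and higher in mus53, beside 0.597%, and 6 (5.94%) passed in neither strain, beside 42.7%. The interaction test, which compares the light effects of the strains, passed for 45 of the 101. All 45 had a lower log2 change in light in Δ57513 than in mus53, in some as a smaller rise. Of all tested IDs 5.42% passed in that direction and 5.37% in the other, and without mus53_DD replicate 1 it was 25 members. Both strain ratios of the rule enter that test, and it is given as a description. Library numbers in the labels form a block for light and another for darkness, and dark libraries were deeper, so light and library block cannot be told apart.

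**Figure D3:**
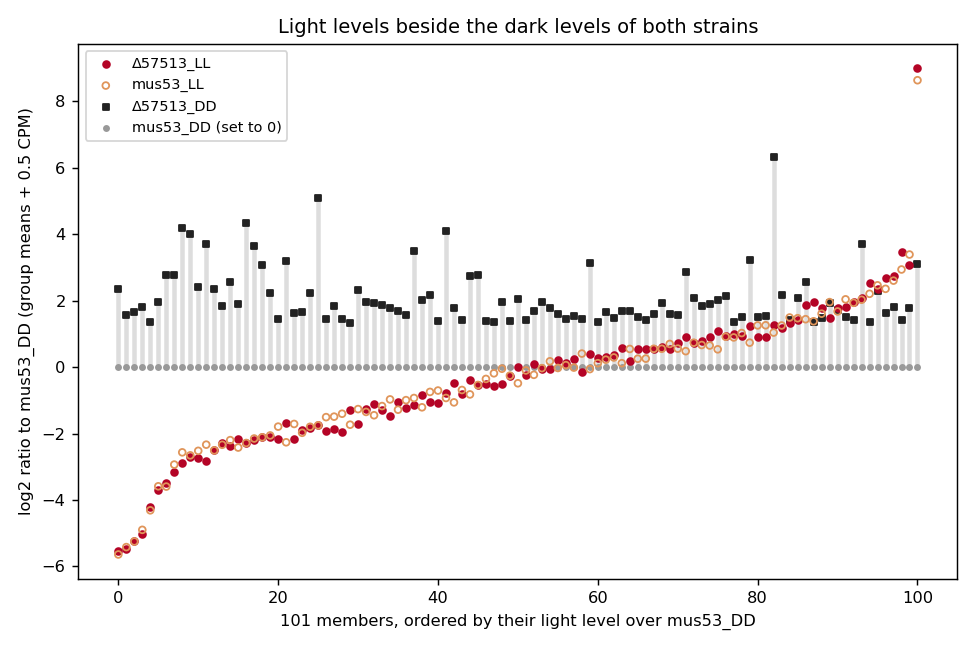
Group means of the 101 IDs as log2 ratios to mus53_DD, with 0.5 CPM added. IDs run along the x axis in the order of their light level, filled red circles are Δ57513_LL, open circles mus53_LL, black squares Δ57513_DD and grey points mus53_DD, set to 0. The light points of both strains cross the grey line and, at the right, the black squares.

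The light levels that sort the IDs into these kinds are the ones that enter the tests of light, so counts of calls by kind are largely fixed by the sorting and are given as a description. Of the 45 IDs whose light level lay below mus53_DD, all were lower in light in Δ57513 by edgeR's test and 39 also in mus53. Their light level had a median of 0.260 times mus53_DD and 0.0545 times Δ57513_DD. TrE0436W had 23.3, 26.5 and 16.9 CPM in Δ57513_LL and 10.5, 31.4 and 31.7 CPM in mus53_LL, far under every dark library of either strain. Its log2 change in light was -7.07 in Δ57513 (SE 0.66, edgeR adjusted p = 7.26e-05) and -5.10 in mus53 (SE 0.63, edgeR adjusted p = 0.000357). TrF0836C had 33.8, 43.7 and 34.3 CPM in Δ57513_LL and 33.0, 56.0 and 57.6 CPM in mus53_LL. In darkness it stood at 742, 313 and 445 CPM in Δ57513_DD and 96.9 and 179.6 CPM in mus53_DD, so light libraries were lowest and Δ57513_DD libraries highest. Its log2 change in light was -3.96 in Δ57513 (SE 0.42, edgeR adjusted p = 0.000131) and -1.66 in mus53 (SE 0.41, edgeR adjusted p = 0.0122).

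Among these 45, 23 had a mean under 0.5 CPM in both light groups. The same was found for 291 of all 9040 tested IDs (3.22%) and for 79 of the 7486 past the level minimums (1.06%). At such levels the 0.5 CPM added to the means holds the light ratio near 1, so the light condition of the rule takes nearly all of them and shows no strain effect either way. Of the 293 IDs raised in darkness, 27 were this low in light, and 23 of the 27 fell in the set. In darkness 12 of the 23 passed the strain test, a contrast the rule used, beside 7.25% of all tested IDs called higher in Δ57513_DD. In light against darkness 23 passed as lower in Δ57513 and 22 in mus53, beside 22.7% and 20.4% of all tested IDs. The low light means that picked the 23 and the dark minimums of the rule largely fix these counts. The other 78 IDs had a light mean of at least 0.5 CPM in 1 strain or both. The interaction test passed for 43 of these 78 and 2 of the 23, beside 5.42% of all tested IDs in the same direction. Both strain ratios of the rule enter that test, so these numbers are a description.

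TrB0851C was among 5 IDs with 0 counts in all 6 light libraries. In darkness it had 56.4, 64.5 and 59.1 CPM in Δ57513_DD, against 22.8 and 14.2 CPM in mus53_DD. Set against a floor of 3 counts over a light group, light was at least 564-fold lower in Δ57513 and at least 157-fold lower in mus53 (edgeR adjusted p = 2.06e-05 and 6.59e-05). TrF0312W had 2 counts in the 3 Δ57513_LL libraries and 2 in the 3 mus53_LL libraries, against 101, 47.4 and 71.2 CPM in Δ57513_DD and 32.3 and 16.5 CPM in mus53_DD (edgeR adjusted p = 1.49e-05 and 8.17e-05 for light in Δ57513 and in mus53). For both IDs the dark libraries of both strains stood clear of the light libraries. Between the strains in darkness, a contrast the rule used, TrF0312W had an edgeR adjusted p of 0.0502.

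The light level of 24 IDs lay near mus53_DD. In Δ57513 23 of them were lower in light by edgeR's test, and in mus53 1 was. TrA1497W had 52.4, 49.1 and 41.1 CPM in Δ57513_LL and 38.6, 45.6 and 50.9 CPM in mus53_LL. In darkness it had 131, 95.2 and 139 CPM in Δ57513_DD and 32.1 and 44.9 CPM in mus53_DD, so that the other 3 groups overlapped below Δ57513_DD. Light was lower in Δ57513 (log2 change -1.56, SE 0.20, edgeR adjusted p = 0.000309), and the log2 change in mus53 was 0.07 (SE 0.22, edgeR adjusted p = 0.834). TrD0414W had 79.5, 81.9 and 75.1 CPM in Δ57513_LL and 93.5, 95 and 74.7 CPM in mus53_LL, beside 228, 299.7 and 357 CPM in Δ57513_DD and 102 and 123 CPM in mus53_DD. It is the ID of these 24 that was also lower in light in mus53 (log2 change -0.52, SE 0.17, edgeR adjusted p = 0.0406).

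TrF0811W, named after its values were seen, was the ID that passed the strain test in light. It had 12.2, 13.6 and 13.8 CPM in Δ57513_LL, against 10.1, 8.85 and 9.69 CPM in mus53_LL, so its groups did not overlap in light either. In darkness the libraries stood at 97.9, 83.2 and 95.9 CPM in Δ57513_DD and 10.2 and 9.75 CPM in mus53_DD. The strain ratio was 1.36 in light, inside the range of the rule, and 8.85 in darkness. In light its edgeR adjusted p was 0.0326, and it missed the threshold in 6 of 17 alternatives, with DESeq2 (adjusted p = 0.0712), with only the light libraries in the fit (0.0903), and without replicate 2 or 3 of either light group (0.0631 to 0.104).

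The light level of 14 IDs lay between the dark levels, and 11 of them were lower in light in Δ57513. TrD0022W had 610.1, 429 and 277 CPM in Δ57513_LL and 71.9, 390.5 and 461 CPM in mus53_LL, with mus53_LL replicate 1 far under the other light libraries. Light was lower in Δ57513 (log2 change -2.18, SE 0.58, edgeR adjusted p = 0.0149), and mus53 gave 0.59 (SE 0.63, edgeR adjusted p = 0.496). TrD0996W had 241, 261 and 263 CPM in Δ57513_LL and 153, 197 and 219 CPM in mus53_LL. In darkness it had 776, 237 and 235 CPM in Δ57513_DD, against 75.8 and 63.3 CPM in mus53_DD, so that Δ57513_DD replicates 2 and 3 stood at the light level and replicate 1 above it. TrG0034W, with the highest strain ratio in darkness, is also of this kind. It had 2.36, 5.39 and 4.93 CPM in Δ57513_LL and 1.98, 4.12 and 4.56 CPM in mus53_LL, in part overlapping the mus53_DD libraries and far under the Δ57513_DD libraries, and light was lower in Δ57513 (log2 change -5.41, SE 0.55, edgeR adjusted p = 0.000106).

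For 12 IDs the light level of both strains lay near Δ57513_DD, so that mus53_DD was the low group. In mus53 10 of them were higher in light by edgeR's test, while in Δ57513 2 were lower. TrD1010C had 1379, 1437 and 1495 CPM in Δ57513_LL and 1362, 1613 and 1718 CPM in mus53_LL. In darkness it had 1672, 1239 and 1229 CPM in Δ57513_DD, against 195 and 372 CPM in mus53_DD, which alone lay apart. Light was higher in mus53 (log2 change 2.30, SE 0.29, edgeR adjusted p = 0.000365), and Δ57513 gave -0.15 (SE 0.24, edgeR adjusted p = 0.643). TrB0727C had 95, 120.0 and 134 CPM in Δ57513_LL and 101, 116 and 124 CPM in mus53_LL, beside 70.8, 75.9 and 88.5 CPM in Δ57513_DD and 23.0 and 35.7 CPM in mus53_DD. Its log2 change in light was 1.79 in mus53 (SE 0.23, edgeR adjusted p = 0.000353) and 0.37 in Δ57513 (SE 0.19, edgeR adjusted p = 0.142).

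In 6 IDs light stood above both dark groups. All 6 were higher in light in mus53 and 5 of them in Δ57513. TrB0209C had the largest change, with 1648, 1683 and 1501 CPM in Δ57513_LL and 487, 1358 and 1919 CPM in mus53_LL. In darkness it had 68.2, 6.91 and 4.79 CPM in Δ57513_DD, against 2.82 and 2.5 CPM in mus53_DD, and its place in the set rests on Δ57513_DD replicate 1, without which the dark ratio was 2.01. The log2 change in light was 5.68 in Δ57513 (SE 1.08, edgeR adjusted p = 0.00304) and 8.73 in mus53 (SE 1.52, edgeR adjusted p = 0.00223). TrB1130W had 2538, 2383 and 1795 CPM in Δ57513_LL and 2349, 2807 and 3121 CPM in mus53_LL, beside 1747, 433 and 517 CPM in Δ57513_DD and 172 and 355 CPM in mus53_DD. Here too Δ57513_DD replicate 1 stood far above the other dark libraries, and the dark ratio was 1.80 without it. Light was higher in mus53 (log2 change 3.23, SE 0.67, edgeR adjusted p = 0.00527), with an adjusted p of 0.0501 without mus53_DD replicate 1, and Δ57513 gave 1.09 (SE 0.52, edgeR adjusted p = 0.12). TrF1128W had 49.6, 43.4 and 51.0 CPM in Δ57513_LL and 17.4, 31.8 and 50.9 CPM in mus53_LL, beside 9.79, 15.7 and 8.70 CPM in Δ57513_DD and 3.56 and 4.28 CPM in mus53_DD. All its light libraries lay above all dark ones, and the log2 change in light in Δ57513 was 1.88 (SE 0.36, edgeR adjusted p = 0.00314).

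The 3 Δ57513_DD libraries did not agree on all IDs. Replicate 1 lay over 2-fold above both others for 14 of the 101 (13.9%) and over 2-fold below both for 11 (10.9%), beside 4.38% and 4.17% of the 7486 IDs past the level minimums. The ratio of the highest to the lowest Δ57513_DD library had a median of 1.61 over the 101 and ran from 1.05 to 13.0, and the median was 1.26 over the 7486. TrB0209C was the widest, followed by TrC0831W with 27.4, 5.70 and 4.71 CPM in Δ57513_DD, against 3.68 and 2.57 CPM in mus53_DD. The narrowest were TrE1255W, at 19.6, 19.2 and 20.2 CPM in Δ57513_DD and 5.21 and 9.03 CPM in mus53_DD, and TrF0022W, at 16.8, 17.1 and 16.1 CPM in Δ57513_DD and 5.89 and 6.26 CPM in mus53_DD. Without replicate 1, 8 of the 14 IDs that it led had a dark ratio under 2.5.

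**Figure D4:**
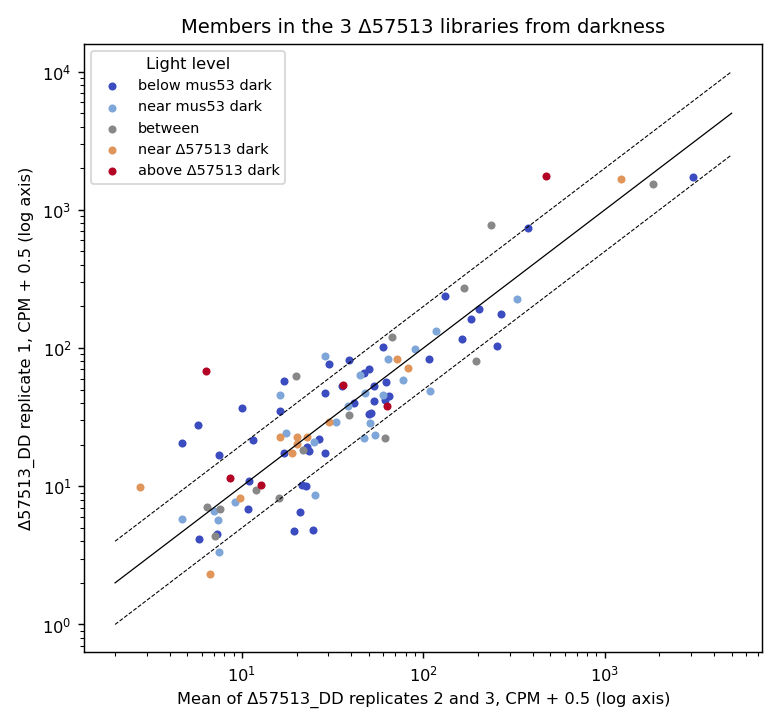
CPM + 0.5 of each of the 101 IDs in Δ57513_DD replicate 1 (y axis) against the mean of replicates 2 and 3 (x axis), both on log axes and coloured by light level. The solid line marks equal values and dashed lines a 2-fold difference. IDs lie outside the dashed lines on both sides, TrB0209C farthest at the upper left.

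The membership itself depended on single libraries. Applied without Δ57513_DD replicate 1 the rule gave 108 IDs, 84 of them among the 101. Without mus53_DD replicate 1 it gave 91 with 75 shared, and without mus53_DD replicate 2 it gave 155 with 88 shared. Leaving out any one of the other 8 libraries gave 100 to 108 IDs with 90 to 98 shared. Taking each Δ57513_DD library against each mus53_DD library, 34 of the 101 had a ratio of at least 2.5 in all 6 pairs. The median ratio was 3.64 to 4.04 against mus53_DD replicate 1 and 3.01 to 3.38 against mus53_DD replicate 2. Replicate 2 lay above replicate 1 in mus53_DD for 63 IDs (62.4%), beside 37.0% of the 7486.

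Light libraries of the parent also varied. Of the 49 members with a mus53_LL mean of at least 5 CPM, replicate 1 was the lowest of its group in 33 (67.3%), beside 35.2% of the IDs past the level minimums with such a mean. The ratio of the highest to the lowest library had a median of 1.27 over the 101 in Δ57513_LL and 1.5 in mus53_LL, beside 1.15 and 1.23 over the 7486. Since the light ratio of the rule uses the mean of these libraries, IDs with a low replicate 1 have a mus53_LL mean that rests on the other replicates.

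The IDs are numbered serially within 7 lettered series and end in W or C. The set held 18 IDs of series A, 20 of B, 8 of C, 15 of D, 10 of E, 17 of F and 13 of G. Relative to 100 IDs past the level minimums of the same series, this was 2.46 in F and 0.706 in C, with 1.09 to 1.61 in the others. W was the suffix of 55 (54.5%) and C of 46 (45.5%), beside 49.4% and 50.6% of the IDs past the level minimums. Serial numbers between 21 and 60 from an end of a series, a window chosen after the values were seen, were carried by 12 of the 101 (11.9%), beside 4.33% of the IDs past the level minimums. The 159 IDs raised in darkness with a light ratio above 1.5 had 19 there (11.9%), so this was not particular to the set. TrG0034W, at place 34 from an end, and TrD0022W, at place 22, were among the 12. Serial numbers are used here as an order of IDs, and positions in the genome were not looked up.

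Another member within 3 serial numbers was found for 9 of the 101 (8.91%). A member was as near for 5.35% of the 10596 IDs left after the ends were skipped. Only 7486 of these were past the level minimums, and the share over those alone was not computed. These 9 form 3 runs, of 5, 2 and 2 IDs. When the rule was applied without single libraries, 17 of 108 IDs had such a neighbour without Δ57513_DD replicate 1. It was 14 of 91 without mus53_DD replicate 1 and 31 of 155 without mus53_DD replicate 2. A larger set has more neighbours by number alone, but the set of 91 was smaller than the 101. The share over all IDs was not computed for these sets, and the cause was not tested. IDs next to a member that were not members themselves had a median log2 strain ratio in darkness of 0.12 (n = 125), beside 0.01 over 7649 IDs with at least 5 CPM in a dark group after the added 0.5. A ratio over 1.5 was found for 23.2% of these neighbours, 21.6% at a distance of 2 and 25.2% at a distance of 3, beside 13.3% of the 7649. At distances of 4 to 9 the share was 13.8% to 17.6%, and at a distance of 10 it was 22.1%.

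The longest run was TrG0816W, TrG0817C, TrG0818W, TrG0819C and TrG0821W. TrG0816W had 32.5, 35.4 and 41.5 CPM in Δ57513_DD, against 11 and 12.8 CPM in mus53_DD. TrG0817C had 115, 114 and 212 CPM in Δ57513_DD and 8.15 and 9.36 CPM in mus53_DD. TrG0818W had 52.5, 44.8 and 61.1 CPM in Δ57513_DD and 3.99 and 3.62 CPM in mus53_DD. In each the Δ57513_DD libraries lay far from the mus53_DD libraries, and so they did for TrG0819C, with 41, 44.3 and 61.6 CPM in Δ57513_DD and 1.96 and 1.91 CPM in mus53_DD. The dark ratios of the 5 IDs were 2.99, 15.9, 12.4, 20.3 and 33.7, and the order of the libraries differed between them.

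In light the run was low in both strains apart from its first ID. TrG0816W had 20.8, 19.7 and 19.1 CPM in Δ57513_LL and 14, 19.6 and 19.5 CPM in mus53_LL. TrG0817C had 26 counts in the 3 Δ57513_LL libraries and 25 in the 3 mus53_LL libraries, and TrG0818W had 12 in each group. TrG0819C and TrG0821W had 0 counts in all 6 light libraries. Set against the floor of 3 counts, TrG0819C was at least 461-fold lower in light in Δ57513 (edgeR adjusted p = 2.57e-05) and at least 16.4-fold lower in mus53 (edgeR adjusted p = 0.000746). TrG0821W was lower by a factor of at least 529.8 in Δ57513 (edgeR adjusted p = 0.000273) and of at least 10.0 in mus53 (edgeR adjusted p = 0.0143).

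IDs around the run, looked at after its values were seen, show where it ends. TrG0815W, just before it, was at 293, 364 and 396 CPM in Δ57513_DD and 551 and 447 CPM in mus53_DD, so not raised. TrG0820C, inside the run, had 64 counts in Δ57513_DD and 5 in mus53_DD, too few for the level minimums. TrG0822C, TrG0823W and TrG0824W follow with dark ratios of 4.69, 38.7 and 29.1. The light ratio was 0.276 for TrG0822C and 0.654 for TrG0823W, both below the range of the rule, and TrG0824W was left out because its mus53_DD mean, 0.736 CPM before the added 0.5, was under the minimum. TrG0823W had 175, 139 and 199.9 CPM in Δ57513_DD, against 4.84 and 3.03 CPM in mus53_DD. With TrG0825C the levels were again alike, at 107, 93.8 and 89.2 CPM in Δ57513_DD and 113 and 124 CPM in mus53_DD. From TrG0816W to TrG0824W all 9 consecutive serial numbers had more reads in every Δ57513_DD library than in any mus53_DD library.

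**Figure D5:**
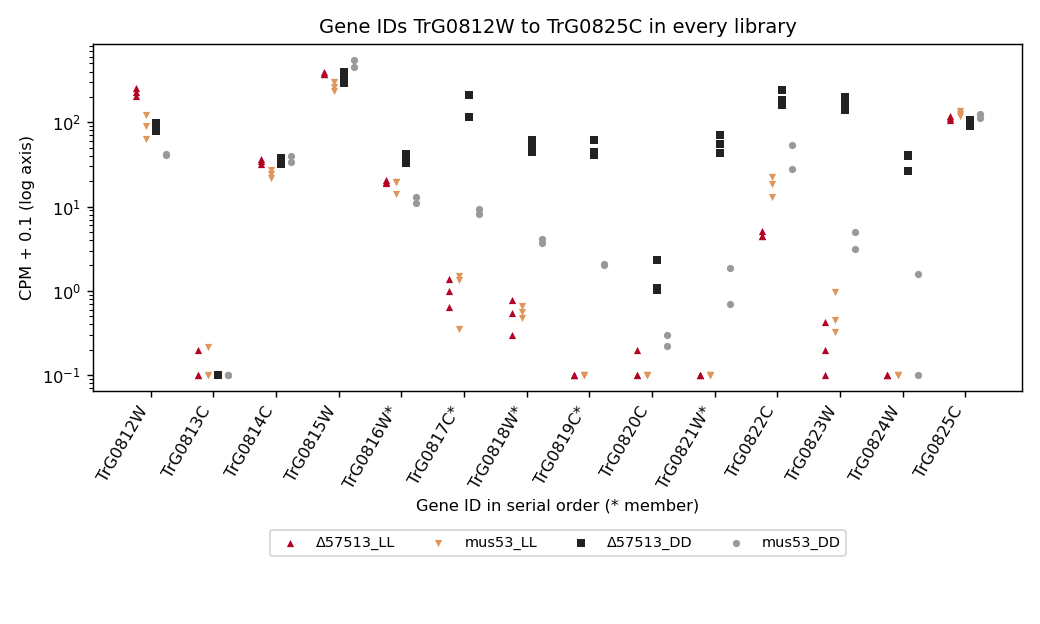
CPM + 0.1 on a log axis for the 14 IDs from TrG0812W to TrG0825C, each point 1 library, with members marked by a star. From TrG0816W to TrG0824W the black Δ57513_DD squares lie above the grey mus53_DD points, and for most of these IDs the red and orange light points lie lowest.

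The other runs were pairs. TrA0420W had 57.2, 17.8 and 15.4 CPM in Δ57513_DD, against 1.66 and 6.26 CPM in mus53_DD, and TrA0421C had 76.2, 34.5 and 25.1 CPM in Δ57513_DD, against 1.41 and 4.68 CPM in mus53_DD. In both IDs Δ57513_DD replicate 1 was the highest and mus53_DD replicate 1 the lowest dark library. Neither had a count in Δ57513_LL, and they had 2 and 5 counts in mus53_LL. TrB0604C had 18.9, 14.8 and 30.1 CPM in Δ57513_DD, against 2.02 and 1.78 CPM in mus53_DD. TrB0605W had 162, 133 and 230.5 CPM in Δ57513_DD, against 28.2 and 23.2 CPM in mus53_DD. Here replicate 3 was the highest and replicate 2 the lowest of the Δ57513_DD libraries in both IDs. Their light levels differed, since TrB0604C had 7 counts in Δ57513_LL and none in mus53_LL, while TrB0605W had 17.1, 19.4 and 21.9 CPM in Δ57513_LL and 14.9, 14.1 and 13.9 CPM in mus53_LL. IDs around the pairs, looked at after the values were seen, were in part raised too. TrA0422W, just after TrA0421C, had 31.3, 11.5 and 5.22 CPM in Δ57513_DD and 0.92 and 7.97 CPM in mus53_DD, which overlap. Its dark ratio was 3.34. Just before TrB0604C, TrB0602W and TrB0603C had dark ratios of 9.865 and 2.02. The other IDs looked at around the pairs had ratios of 0.971 to 1.857.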

How the data were processed

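RNA sequencing gave raw read counts per gene ID for 11 libraries. The deposited table holds these counts as whole numbers without normalization, and all 11 columns were matched by the alignment names in the sample descriptions. Per the labels' protocols, stranded libraries were made after ribosomal RNA depletion, and HISAT2 2.2.1 is named in the submitters' processing notes. How strand and multiply mapping reads were handled in counting is not given in the sources used here, so reads of overlapping or near-identical genes are uncertain.

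CPM was computed here from library totals. Tests used edgeR 4.0.16 in R 4.3.3 on the counts: filterByExpr, TMM scaling, a robust quasi-likelihood fit of 4 group means over all 11 libraries, and Benjamini-Hochberg adjustment over 9040 IDs at 0.05. The groups thus shared an estimate of the spread. TMM scaling moved the median log2 change of all IDs in light from 0.19 to -0.01 in Δ57513 and from 0.15 to 0.00 in mus53, so CPM ratios and fitted changes differ by about that shift. Where a group had 0 counts, its level was set to 3 counts over the group, which covers counting error only.

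The members, comparisons and alternatives were chosen with earlier results of these data known. IDs named in the text were the 2 highest in dark ratio and in Δ57513_DD level, 2 per light level, up to 2 in each direction of each light test, those at the bound, in runs, and of widest and narrowest dark range. Alternatives were other scalings, filters, DESeq2 1.42.0, a fit restricted to the compared groups, a replicate block, other settings of the rule and omission of each library. No sequence, genome or gene name was used here.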

Additional observations from a re-analysis of the deposited data

Results flagged for a closer look

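The light effect differed between the strains for 45 of the 101 IDs by the interaction test in edgeR (adjusted p under 0.05 over all 9040 IDs), in each case lower in Δ57513 than in mus53. Both strain ratios that define the set enter this test, so the number is a description of what was chosen. Without a single library it was 25 to 50, lowest without mus53_DD replicate 1.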

How the results depend on the processing

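Of 231 values recomputed for 17 counts, 215 stayed within 1.5 times the value reported. Log2 changes were recomputed only for the IDs picked from each light test and for TrF0811W between the strains in light. None of these changed sign, and the other log2 changes in the text were not recomputed. The set held 169 IDs with a dark ratio of 2, 68 with a ratio of 3, 80 without the added 0.5 CPM, 93 with group medians and 108 with TMM-scaled CPM. In a fit restricted to the compared groups, 34 members passed as higher in darkness in Δ57513. With library totals alone, 2 passed the strain test in light. A narrower margin of the light level left 14 IDs near mus53_DD, 25 between and 6 near Δ57513_DD. With TMM-scaled CPM 47 IDs lay below mus53_DD, 27 near it, 11 between, 10 near Δ57513_DD and 6 above. Of the 14 IDs between in the main setting, 9 stayed there. Without 1 library at a time the ranges were 91 to 155 for the set, 39 to 76 for the strain test in darkness, 0 to 4 for that in light and 25 to 50 for the interaction, 27 to 44 and 12 to 22 for lower and higher in light in mus53, 74 to 84 and 5 to 6 in Δ57513, and 8 to 31 for members with another within 3 serial numbers. The classes by light level held 44 to 46, 22 to 26, 12 to 17, 9 to 14 and 6 to 8 IDs. The causes were not tested. The replicate block gave 53 members for the strain in darkness, 1 for that in light, 38 for the interaction, 82 and 5 lower and higher in light in Δ57513 and 35 and 15 in mus53. Same-numbered libraries deviated together at r = -0.378 to 0.261 over 15 pairs, so the numbers were not taken as pairs. Omission of libraries and TMM scaling for the members low in light, and TMM scaling for the spread of Δ57513_DD, were chosen after seeing the data.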
